A study of Mus musculus with 12 samples.

Results

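The comparison of FosB KO with WT mice in TRAP (translating ribosome affinity purification) was made on 6 of the 12 libraries of the series, chosen by genotype and by the absence of the word input from the label. These were 3 WT TRAP libraries, from pools 1, 2 and 3, and 3 KO TRAP libraries, from pools 2, 3 and 4, and the other 6 libraries were the unpurified input of the same pools. All mice carried the Cre-dependent GFP-L10a ribosomal protein at Rosa26 and all received retrograde HSV-Cre in nucleus accumbens (NAc), with ventral hippocampus (vHPC) punched 3 weeks later. The KO mice were FosB fl/fl, so that Cre removed part of the gene, while the WT mice were littermates without the floxed alleles. The labels give C57BL/6 as the strain and 3 mice per pool, the protocol gives 3 to 4, and no age is stated for these pools. Retrograde Cre also reaches other regions that project to NAc, so the loss of FosB in this model was not confined to vHPC. Nothing in the labels pairs a WT pool with a KO pool. Of 37310 annotated genes, 11727 had enough reads in the TRAP libraries to be tested.

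FosB is a transcription factor of the Fos family that dimerizes with Jun proteins and binds AP-1 sites in DNA. Its truncated splice product ΔFosB is unusually stable and builds up in neurons that are activated again and again, and in hippocampus it is known for its links to stress, learning and excitability. TRAP reads out the mRNAs that ribosomes carry in the cells that made the tagged protein, here neurons whose axons end in NAc. The comparison asks which ribosome-bound mRNAs differ in those neurons when FosB is deleted.

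The TRAP libraries held 3463569 to 5614089 counts on genes, and 3 counts corresponded to 0.534 to 0.866 CPM (a gene's share of the library, TMM-normalized) before scaling, a floor that covers counting error only. The libraries were alike, with correlations of 0.957 to 0.975 between any pair, and the leading component (26.4% of the variance) did not separate the genotypes. Mitochondrial genome genes took 0.0305% to 0.130% of TRAP counts and 5.29% to 9.05% of input counts. Slc17a7, which loads glutamate into vesicles, stood at 602 to 687 CPM in WT TRAP and 588 to 707 CPM in KO TRAP. The astrocyte gene Gfap was at 8.24 to 16.5 CPM in TRAP against 108 to 147 CPM in input, and the endothelial gene Cldn5 had no count in 5 of the 6 TRAP libraries and 3 counts in KO 2. KO 2 stood apart in some genes of GABA neurons, with Gad1 at 172 CPM and Gad2 at 186 CPM. The other 5 TRAP libraries held 45.2 to 88.9 CPM and 27.6 to 49.3 CPM. Slc32a1 and Lhx6 were also highest in KO 2. Other GABA neuron genes were lower in KO 2 than in WT 1, with Sst at 175 against 176 CPM, Dlx1 at 10.9 against 15.5 CPM and Npy at 19.8 against 52.5 CPM. Fosb, the targeted gene, stood at 45.2, 32.0 and 40.1 CPM in WT 1, 2 and 3 and at 29.3, 18.8 and 21.5 CPM in KO 2, 3 and 4. The groups did not overlap, although WT 2 and KO 2 were close. The count covers the whole gene, so reads from the exons that Cre removes could not be set apart. The log2 fold change of Fosb was -0.76 (standard error 0.21), with an unadjusted p of 0.00126 and an adjusted p of 0.337 by edgeR's quasi-likelihood F test (Benjamini-Hochberg).

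Few ribosome-bound mRNAs differed between KO and WT by the adjusted test. By edgeR's quasi-likelihood F test, Peg10, Id4, Gm10036 and Gm11223 rose in KO, while Nefm, Calm3, Efr3b and Rps9 fell. These 8 genes are 0.0682% of the genes tested, 0.0341% in each direction. Most other genes lay close to no difference, with 89.7% of log2 fold changes within 0.5 of 0 and 98.4% within 1, and the median standard error was 0.21. Before adjustment, p was under 0.05 for 709 genes (6.05%), where 586 would be called if no gene differed, and 314 of them were higher in KO (2.68%) and 395 lower (3.37%). Without a composition factor in the normalization the split turned to 432 higher and 275 lower. In 1390 genes (11.9%) the KO and WT libraries did not overlap. The number with an adjusted p under 0.05 depended on single pools, with 20 without WT 1, 19 without WT 2, 14 without KO 2 and 5 without KO 3, and the unadjusted number was 431 without KO 4 and 560 with DESeq2, both below the number that no difference would give. With no expression filter 41 genes passed and with DESeq2 18 did, and in each case all 8 genes above were among them. The p-values measure the spread between pools, and an exact permutation test of 3 against 3 cannot go below 0.10. A share of about 0.10 of the genes would likewise show no overlap if no gene differed.

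**Figure D1:**
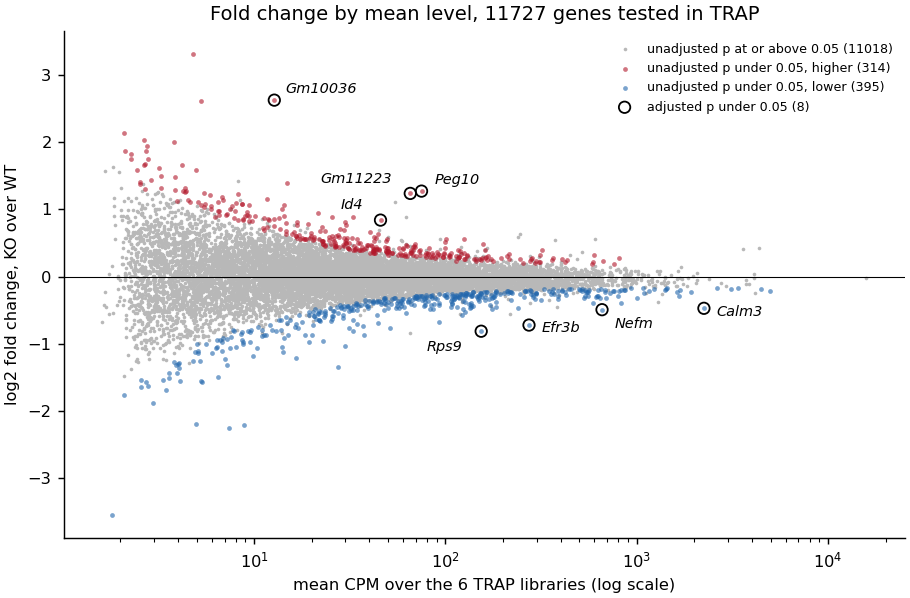
Log2 fold change of KO over WT (y axis) against mean CPM over the 6 TRAP libraries (x axis, log scale), a point for each of the 11727 genes tested, with red for the 314 higher and blue for the 395 lower at an unadjusted p under 0.05 and circles for the 8 with an adjusted p under 0.05. The spread of the points narrows as the level rises, and the 8 circled genes lie between -0.81 and 2.63.

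Among the genes that rose, Peg10 showed the smallest adjusted p. It is a paternally expressed gene that derives from a retrotransposon and still encodes a capsid-like protein, on chromosome 6 of mm9 from 4697306 to 4710514. Peg10 stood at 45.0, 41.2 and 45.4 CPM in WT 1, 2 and 3 and at 103, 112 and 103 CPM in KO 2, 3 and 4. The pools of each genotype lay close together, and the genotypes were far apart. The log2 fold change was 1.27 (standard error 0.13, edgeR adjusted p = 1.85e-05), and with each pool left out in turn it stayed between 1.24 and 1.30. Id4 encodes a helix-loop-helix protein without a DNA-binding region that holds E proteins away from DNA. It stood at 29.0, 35.5 and 34.0 CPM in WT and at 58.9, 54.1 and 63.0 CPM in KO. Although the groups did not overlap, its log2 fold change of 0.84 (standard error 0.16, edgeR adjusted p = 0.0351) passed the threshold in only 1 of the 6 fits that left out a pool. A lincRNA on the other strand shares 171 bases of its exons, and the strand setting of the counting is not given. Gm10036 stood at 4.45, 2.82 and 3.19 CPM in WT and at 18.4, 22.4 and 25.2 CPM in KO, for a log2 fold change of 2.63 (standard error 0.33, edgeR adjusted p = 0.000272). Gm11223, annotated as a pseudogene, stood at 51.4, 26.8 and 38.0 CPM in WT and at 96.2, 100 and 79.9 CPM in KO, for a log2 fold change of 1.24 (standard error 0.19, edgeR adjusted p = 0.0109) whose call was lost without WT 3 or without KO 3. Of the 32-base windows of their exons, 73.6% in Gm10036 and 81.5% in Gm11223 also occur letter for letter elsewhere on the chromosomes of mm9, so their counts are uncertain. For Rps9 this share was 14.5%, and for the other 5 genes 0% to 4.85%.

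Of the genes that fell, Efr3b encodes a membrane protein that anchors a phosphatidylinositol kinase at the cell surface, and lies on chromosome 12 from 3962554 to 4038915. It stood at 315, 333 and 374 CPM in WT and at 194, 208 and 217 CPM in KO, for a log2 fold change of -0.72 (standard error 0.10, edgeR adjusted p = 0.000439). Rps9, a protein of the small ribosomal subunit, stood at 179, 206 and 203 CPM in WT and at 121, 112 and 102 CPM in KO, for a log2 fold change of -0.81 (standard error 0.11, edgeR adjusted p = 0.000439). Both genotypes held tight ranges, and both calls held in each of the 6 fits that left out a pool. Calm3, which encodes the calcium sensor calmodulin, stood at 2475, 2707 and 2642 CPM in WT and at 1867, 1935 and 1836 CPM in KO. Every KO pool was below every WT pool, by a log2 fold change of -0.47 (standard error 0.07, edgeR adjusted p = 0.00284), and without KO 4 the adjusted p was 0.101. Nefm, the medium neurofilament subunit, stood at 741, 699 and 869 CPM in WT and at 537, 583 and 520 CPM in KO. Its log2 fold change of -0.49 (standard error 0.09, edgeR adjusted p = 0.0298) lost the call without WT 3, KO 2, KO 3 or KO 4. The annotation of Nefm shares 1108 exon bases with Nefl on the other strand, which is 19.2% of its own.

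**Figure D2:**
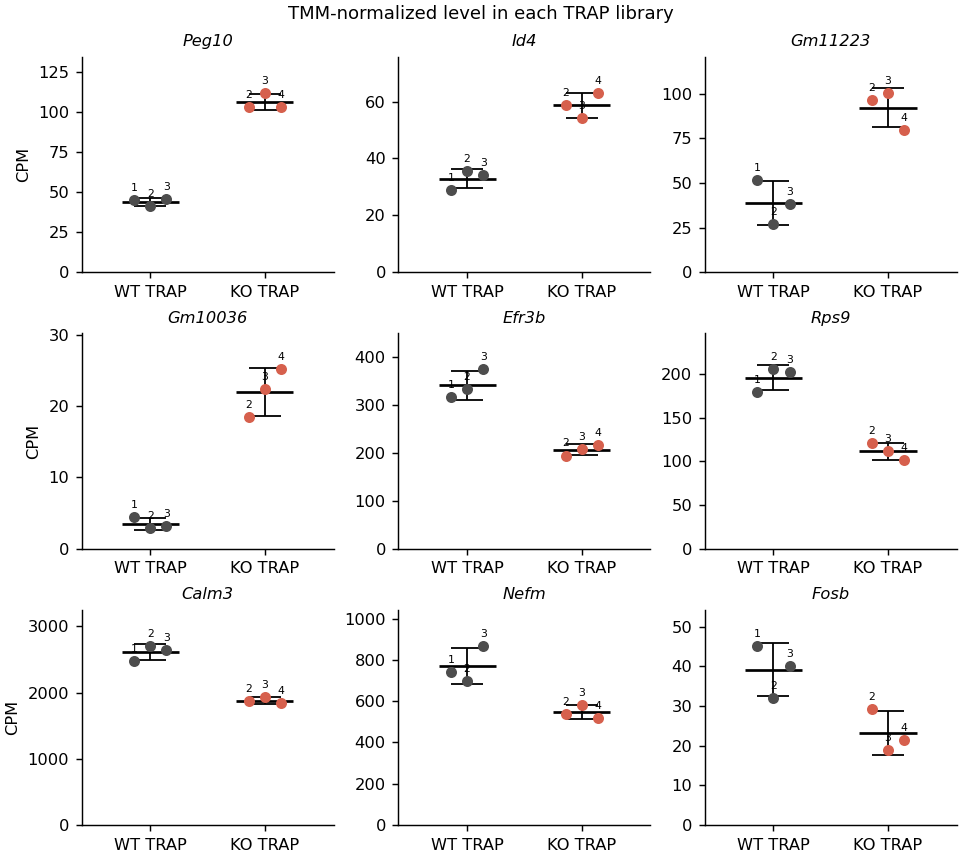
CPM (y axis, from 0) of the 8 genes with an adjusted p under 0.05 and of Fosb in each TRAP library, with WT in grey and KO in red, points numbered by pool, and the bar and whiskers giving the mean and SD of the 3 libraries. In all 9 panels the KO and WT points do not overlap, with Peg10 at 41.2 to 45.4 CPM in WT and 103 to 112 CPM in KO.

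To see whether these genes carry the sites that Fos-family factors and their relatives bind, the 250 bases before the annotated start were searched on mm9. The motifs were the AP-1 site TGACTCA and the cyclic AMP response element TGACGTCA, each on both strands, and neither contains the other. AP-1 letters were found before 2.45% of the genes tested, 2.55% of those higher in KO at an unadjusted p under 0.05 and 4.05% of those lower, and the other motif before 2.78%, 2.55% and 4.30%. None of the 8 genes held the AP-1 letters in this window, and Rps9 held the response element, with its first base 9 bases before the start. Among the 24 genes that follow by p, Opa3, Dnajc27 and Zdbf2 held it too and none held the AP-1 letters. Of the 92 genes that the naming rule takes, 91 were tested in TRAP (Rsph10b2 was not), of which 2 held the AP-1 letters and 6 the response element. Both motifs were before Snap25, a membrane fusion protein of synaptic vesicles, and the chaperone gene Hsp90ab1, at log2 fold changes of -0.21 and -0.18. They are shown with the motif in capitals and up to 30 bases on each side, from the strand of the gene.
Rps9 (chr7:3655556-3655594, + strand): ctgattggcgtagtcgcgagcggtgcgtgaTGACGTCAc
Opa3 (chr7:19813433-19813481, + strand): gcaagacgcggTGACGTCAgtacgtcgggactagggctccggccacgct
Dnajc27 (chr12:4082528-4082595, + strand): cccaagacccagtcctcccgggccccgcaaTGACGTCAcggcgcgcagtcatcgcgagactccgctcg
Zdbf2 (chr1:63319754-63319821, + strand): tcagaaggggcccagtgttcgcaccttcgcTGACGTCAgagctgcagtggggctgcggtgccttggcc
Snap25, AP-1 (chr2:136539021-136539087, + strand): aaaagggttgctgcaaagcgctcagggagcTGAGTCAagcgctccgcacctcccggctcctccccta
Snap25, response element (chr2:136539141-136539188, + strand): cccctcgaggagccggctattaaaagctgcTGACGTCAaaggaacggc
Hsp90ab1, AP-1 (chr17:45710367-45710433, - strand): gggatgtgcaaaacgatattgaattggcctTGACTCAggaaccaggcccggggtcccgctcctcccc
Hsp90ab1, response element (chr17:45710306-45710373, - strand): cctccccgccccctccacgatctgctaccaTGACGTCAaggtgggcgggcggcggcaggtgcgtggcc
A match gives the letters in this window only and is not a measurement of binding.

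Below the adjusted threshold, the 12 genes of smallest p that stood higher in KO with no overlap and at least 5 CPM were Siae, Zcchc12, Kcng1, Akap11, Gaa, Rbl2, Slc35b4, Arhgap36, Ahi1, Zdbf2, Tbpl1 and Gng7. Their adjusted p-values from edgeR ran from 0.0708 to 0.384, so none of the following differences passed that test. With DESeq2, Siae here and Npy, Scg5, Opa3, Eno1, Arglu1, Adcy3, Epas1 and Ccdc61 of the lower genes below had adjusted p-values of 0.005 to 0.0493, and these 9 with Gm5506 were the 10 that DESeq2 added. Siae, an esterase that removes acetyl groups from sialic acid, stood at 2.49, 1.18 and 0.531 CPM in WT and at 9.76, 10.2 and 7.57 CPM in KO, from 2 to 14 and 31 to 42 counts. Its log2 fold change was 2.62 (standard error 0.54), the widest error of these 12 genes. Kcng1, a potassium channel subunit that passes current only together with other subunits, stood at 119, 101 and 85.0 CPM in WT and at 132, 155 and 162 CPM in KO. Arhgap36, whose protein blocks the catalytic subunit of protein kinase A, stood at 13.3, 4.23 and 6.38 CPM in WT and at 28.2, 19.5 and 17.1 CPM in KO. Akap11 anchors the same kinase and stood at 133, 123 and 136 CPM in WT and at 183, 150 and 218 CPM in KO. For the remaining 8, the log2 fold changes ran from 0.32 for Ahi1, a protein of the base of cilia, to 0.82 for Slc35b4, a carrier of nucleotide sugars.

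Their counterparts that stood lower were Npy, Scg5, Opa3, Dnajc27, Eno1, Arglu1, Igfbp6, Adcy3, Epas1, Ccdc61, Ube2m and Ndufa3, with adjusted p-values from edgeR of 0.0618 to 0.236. Npy encodes neuropeptide Y, which in hippocampus is made mainly by GABA neurons. It stood at 52.5, 41.4 and 24.4 CPM in WT and at 19.8, 14.4 and 12.7 CPM in KO, for a log2 fold change of -1.35 (standard error 0.26). Sst, the somatostatin gene of GABA neurons, stood at 125 to 176 CPM in WT, at 175 CPM in KO 2 and at 58.3 and 58.1 CPM in KO 3 and KO 4, and without KO 2, 7 of 15 GABA neuron markers were lower at an unadjusted p under 0.05, where 324 of all 12049 genes were. The part of GABA neurons in the lower Npy was not tested. Scg5 encodes a chaperone of a prohormone convertase and stood at 118, 91.2 and 131 CPM in WT and at 69.2, 71.0 and 72.3 CPM in KO. Igfbp6, which binds insulin-like growth factors, stood at 52.8, 50.8 and 42.8 CPM in WT and at 21.5, 22.9 and 35.4 CPM in KO. Ccdc61, a protein of the centriole, had the lowest log2 fold change of these genes, at -2.26 (standard error 0.51), and stood at 8.71, 6.58 and 21.5 CPM in WT and at 1.12, 3.41 and 2.93 CPM in KO. WT 3 was high for this gene. Among genes with at least 5 CPM and an unadjusted p under 0.05, Tuba1c, Aldh1l1, Zfp772 and Pxn were the next most lowered, with log2 fold changes of -2.22 to -1.50, and the libraries of Tuba1c and Pxn overlapped between the genotypes. On the higher side Pomt1 stood at 1.86 to 5.33 CPM in WT and 6.42 to 8.55 CPM in KO (log2 fold change 1.24, standard error 0.49).

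Efr3b, Dnajc27 and Adcy3 are neighbors on chromosome 12. Dnajc27 (a protein with a J domain) lies from 4082612 to 4110602 and Adcy3 (an adenylyl cyclase, which makes cyclic AMP) from 4133103 to 4213525. Dnajc27 stood at 127, 151 and 162 CPM in WT and at 90.9, 113 and 91.8 CPM in KO. Adcy3 stood at 43.7, 33.6 and 42.8 CPM in WT and at 12.3, 21.0 and 25.4 CPM in KO, and 22.1% of its exon bases overlap Cenpo on the other strand. The stretch was taken up because these 3 genes were lower, and of the other 16 genes tested within 1 Mb of Efr3b none had an unadjusted p under 0.05. Next to them on the other side of Adcy3, 2410017P09Rik had a log2 fold change of -0.53 (standard error 0.28), and the genes beyond on either side, Dnmt3a and Ncoa1, had -0.08 and 0.03. In input the log2 fold changes of Efr3b, Dnajc27 and Adcy3 were -0.74, -0.74 and -0.51, and that of 2410017P09Rik was -0.88.

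Input libraries of the same pools gave the whole-tissue values of these genes. Of the 12816 genes tested in input, 4 (0.0312%) passed the adjusted test. Before adjustment 371 (2.89%) had p under 0.05, 181 of them higher (1.41%) and 190 lower (1.48%). Of the 4, Gm10036 rose and Efr3b, Dnajc27 and RNaseP_nuc, an RNA gene that was not tested in TRAP, fell. Efr3b, Rps9 and Calm3 had log2 fold changes of -0.74, -0.72 and -0.42 in input, close to their values in TRAP. Peg10 stood at 45.3, 33.4 and 48.0 CPM in WT input and at 73.1, 67.0 and 64.5 CPM in KO input, a log2 fold change of 0.69 against 1.27 in TRAP. The difference between these Peg10 values was 0.58 (standard error 0.21), with an unadjusted p of 0.00876 and an adjusted p of 1.00 from edgeR's interaction test. Nefm had log2 fold changes of -0.49 in TRAP and -0.14 in input, a difference of -0.35 with an unadjusted p of 0.14. Of the 12 genes listed as next lower, 11 were also below 0 in input and 7 with an unadjusted p under 0.05. For the 12 listed as next higher the numbers were 11 and 1. TRAP and input libraries came from the same pools, so shared directions are not independent. Because these are bulk samples, fewer cells of a type and less RNA per cell cannot be told apart.

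A difference between the KO effects in TRAP and in input passed the adjusted test in 1 gene of 13214 (0.00757%), and in 358 (2.71%) without adjustment. That gene was Epas1, which encodes the hypoxia-inducible factor 2α. In TRAP it stood at 23.3, 22.8 and 23.6 CPM in WT and at 6.97, 10.5 and 12.5 CPM in KO. In input it stood at 116, 133 and 123 CPM in WT and at 146, 144 and 130 CPM in KO. The WT TRAP pools were nearly equal, the KO TRAP pools were all lower, and the input pools of the genotypes overlapped. The difference was -1.38 on the log2 scale (standard error 0.23, edgeR adjusted p = 0.0233), and the adjusted p was above 0.05 in 5 of the 6 fits without a pool, up to 0.796 without KO 2. Epas1 is a gene of blood vessels and astrocytes, and its level in TRAP was far below that in input. Summed over 16 astrocyte markers, TRAP held 605 to 696 CPM in WT and 622 to 694 CPM in KO, and summed over 15 markers of endothelium, pericytes and choroid plexus 32.7 to 53.7 CPM and 29.0 to 50.8 CPM. Both sums overlapped between the genotypes. Of the single astrocyte genes, Aldh1l1 had a TRAP minus input difference of -1.44 with an unadjusted p of 0.00592, and Bcan stood at 7.52 to 10.3 CPM in WT TRAP and 3.35 to 4.88 CPM in KO TRAP, without overlap. Gfap and Aqp4 overlapped, with Aqp4 at 1.24 to 6.35 CPM in WT TRAP and 2.69 to 5.61 CPM in KO TRAP. Id4, also an astrocyte marker, went the other way, with a TRAP minus input difference of 0.43 (unadjusted p of 0.11, edgeR's interaction test). Of the 15 astrocyte markers tested in TRAP, 6 were above 0, against 49.5% of all genes. The part of these cells in the result was not tested. Npy and Smap1 followed among the negative differences, at -1.26 and -0.56, and AI597468, Siae and Rsph10b2 among the positive ones, at 0.84, 2.30 and 2.88, with no adjusted p under 0.05. Most exon bases of Smap1 (58.1%) overlap B3gat2 on the other strand.

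**Figure D3:**
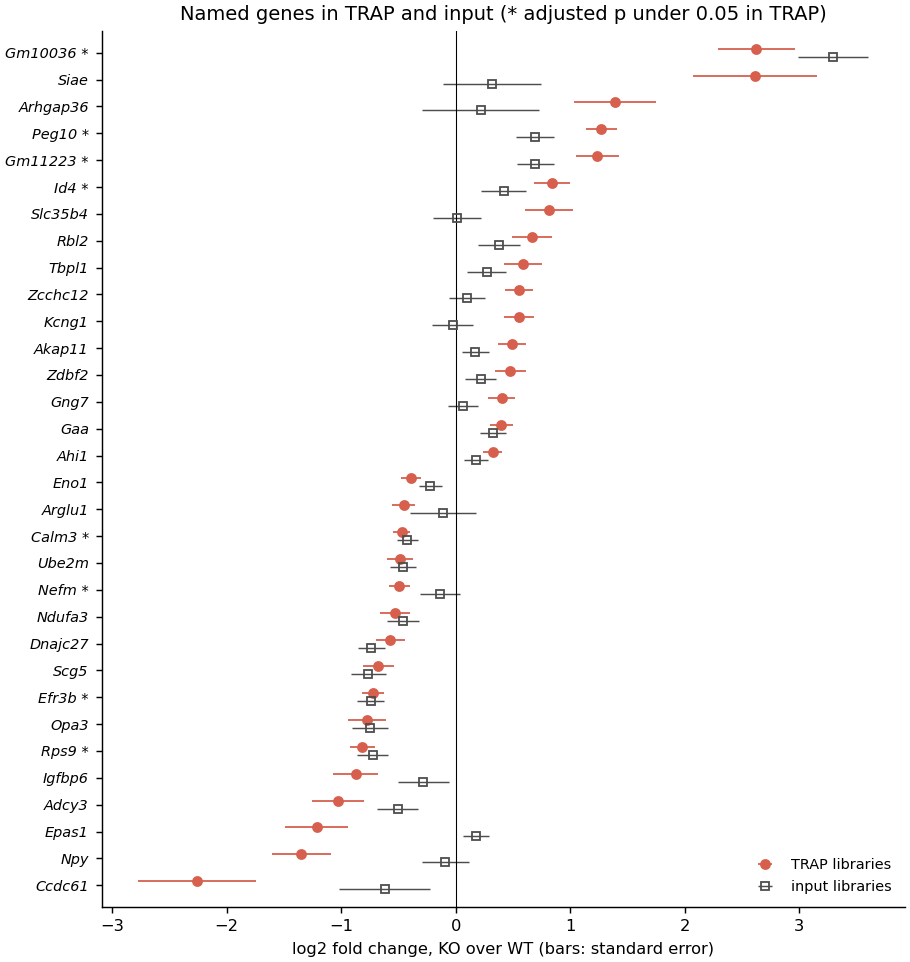
Log2 fold changes of KO over WT (x axis, bars giving the standard error) in TRAP (red circles) and in input (open squares) for the 8 genes with an adjusted p under 0.05 in TRAP, marked with stars, and the next 12 in each direction. Efr3b, Rps9, Calm3, Opa3 and Ube2m have nearly the same value in both kinds of library, while Epas1 lies at -1.21 in TRAP and 0.18 in input and Siae at 2.62 and 0.32.

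Genes close to Fosb on chromosome 7 held many of the lower values in KO. Within 5 Mb of Fosb 55 genes were tested, of which 14 (25.5%) were lower at an unadjusted p under 0.05 and none was higher, against 3.37% and 2.68% of all genes. Beyond 20 Mb on the same chromosome 14 of 573 genes were higher and 14 lower. By distance, 10 of 29 genes within 1 Mb were lower, Fosb included, then 4 of 26 up to 5 Mb, 11 of 111 up to 10 Mb and 6 of 125 up to 20 Mb. The lower genes within 1 Mb were Fosb, Opa3 and Ccdc61, the repair genes Ercc1 and Ercc2, the kinase Mark4, Gemin7 of the SMN complex, and Sympk, Fbxo46 and Cd3eap. Opa3, a mitochondrial protein whose gene lies 0.064 Mb from Fosb, stood at 71.7, 55.3 and 66.9 CPM in WT and at 38.2, 43.4 and 32.0 CPM in KO. Calm3 is 2.39 Mb from Fosb, next to Ap2s1 at 2.56 Mb, a clathrin adaptor subunit with a log2 fold change of -0.47. Rps9 and Ndufa3, a subunit of respiratory complex I, are farther off, at 16.2 and 16.3 Mb. Leaving out each pool in turn gave 10 to 14 lower genes within 5 Mb. In input, 19 of the 55 were lower and 1 was higher (1.48% and 1.41% of all genes in input), and 9 were lower in both, Fosb included. The loss of FosB and any other difference between the floxed and the non-floxed chromosome cannot be told apart in this design. Of the 4 genes that fell and the 12 next lower, 6 were within 20 Mb of Fosb, and of the 4 that rose and the 12 next higher none was. Zfp772, named above for its low fold change, is also within 20 Mb.

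**Figure D4:**
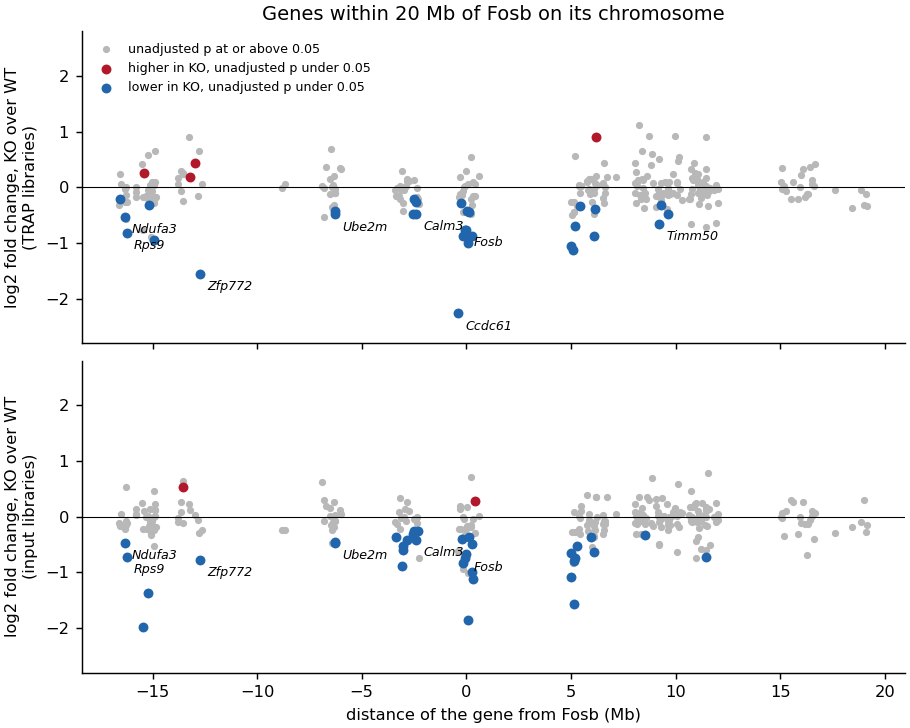
Log2 fold change of KO over WT (y axis) against the distance from Fosb in Mb (x axis) for the genes tested within 20 Mb on chromosome 7, in TRAP (top) and input (bottom), with blue for lower and red for higher at an unadjusted p under 0.05. In TRAP 31 genes are blue and 4 are red, and the blue points gather around Fosb, where 10 of the 29 genes within 1 Mb are lower.

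Imprinted genes, which are expressed from the allele of only 1 parent, stood mostly on the higher side in KO. Of 52 annotated members 40 had enough reads to be tested, of which 10 were higher at an unadjusted p under 0.05 and none was lower, where 2.68% and 3.37% of all genes were, and Peg10 alone passed the adjusted test. Their median log2 fold change was 0.20 against 0.00 over all genes, and 32 were above 0, against 49.5% of all genes. Dlk1, a Notch-like protein of the cell surface, stood at 35.6, 38.1 and 30.5 CPM in WT and at 53.6, 44.6 and 56.9 CPM in KO. Zdbf2, a zinc finger gene with a role in growth, stood at 56.4, 62.6 and 54.5 CPM in WT and at 78.9, 83.9 and 78.6 CPM in KO. For both the groups did not overlap. The other 7 were Rian, Dio3, Usp29, Blcap, Nap1l5, Rasgrf1 and Peg3, with log2 fold changes of 0.18 to 0.90. The direct neighbor of Peg10 in its imprinted cluster, Sgce, had a log2 fold change of 0.28 (standard error 0.40). The number higher was 6 without KO 4 and 6 without WT 3, and in input 3 of 40 were higher and 1 was lower (1.41% and 1.48% of all genes in input).

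Genes that mark neurons of the amygdala and hypothalamus also held members on the higher side. Of 21 annotated markers 17 were tested, of which 7 were higher at an unadjusted p under 0.05 (2.68% of all genes were) and none was lower (3.37%), with a median log2 fold change of 0.32. They were Peg10, Zcchc12, Arhgap36, Ahi1, Dlk1, Hap1 and Gpr101, of which Peg10 and Dlk1 were also in the imprinted list. Like the other lists, this one was chosen with earlier results of these data known. Peg10, Zcchc12, Arhgap36 and Gpr101 are also among the top genes that the paper lists from these libraries. The counts, median and sum of this list are therefore no independent evidence. Zcchc12, a coactivator, stood at 86.1, 71.5 and 88.5 CPM in WT and at 118, 129 and 114 CPM in KO. For Gpr101, an orphan receptor, the groups overlapped, with 20.9 to 25.3 CPM in WT and 20.9, 43.9 and 62.8 CPM in KO 2, 3 and 4. In input 2 of the 17 were higher and none lower (1.41% and 1.48% of all genes in input), and 13 were above 0 around a median of 0.22. Summed over the 21 markers, the level was 2324 to 2452 CPM in WT and 2769 to 2908 CPM in KO, with no overlap, and no marker was at 0 in all TRAP libraries. The summed level of 12 general neuron markers was lower in KO, at 12434 to 13499 CPM against 13866 to 14739 CPM. Of the 12, 3 were lower at an unadjusted p under 0.05, namely Nefl, Stmn2 and Snap25. Nefl and Stmn2 are counted again below among the neurofilament and microtubule proteins, and Snap25 among the genes of vesicle release. Among markers of glutamate neurons (12 tested), of CA1 and subiculum (10) and of dentate gyrus, CA2 and CA3 (14), none was higher or lower at an unadjusted p under 0.05, and with a pool left out at most 1 of a list was in each direction. The part of other cells in these results was not tested.

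Neurofilament and microtubule proteins, which build the axonal cytoskeleton, stood mostly on the lower side in KO. Of 30 members 29 were tested, of which 9 were lower at an unadjusted p under 0.05 (3.37% of all genes were) and none was higher (2.68%), with a median of -0.15 and 25 below 0. Besides Nefm they were Nefl, Stmn2, Tubb4a, Map1b, Stmn3, Tubb2a, Map1lc3b and Dclk1, with log2 fold changes of -0.31 to -0.17. Nefl, the light neurofilament subunit, stood at 746, 708 and 835 CPM in WT and at 597, 647 and 598 CPM in KO. Stmn2, a regulator of microtubules in growing axons, stood at 543, 546 and 681 CPM in WT and at 505, 478 and 463 CPM in KO. The groups did not overlap in either gene. At 100 CPM and above, 9.59% of all genes had an unadjusted p under 0.05, against 6.05% at any level. The number lower was 3 without WT 3, 4 without KO 4, and 5 without KO 2, with DESeq2 or without a composition factor. In input 1 of the 29 was lower and 1 higher (1.48% and 1.41% of all genes in input).

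**Figure D5:**
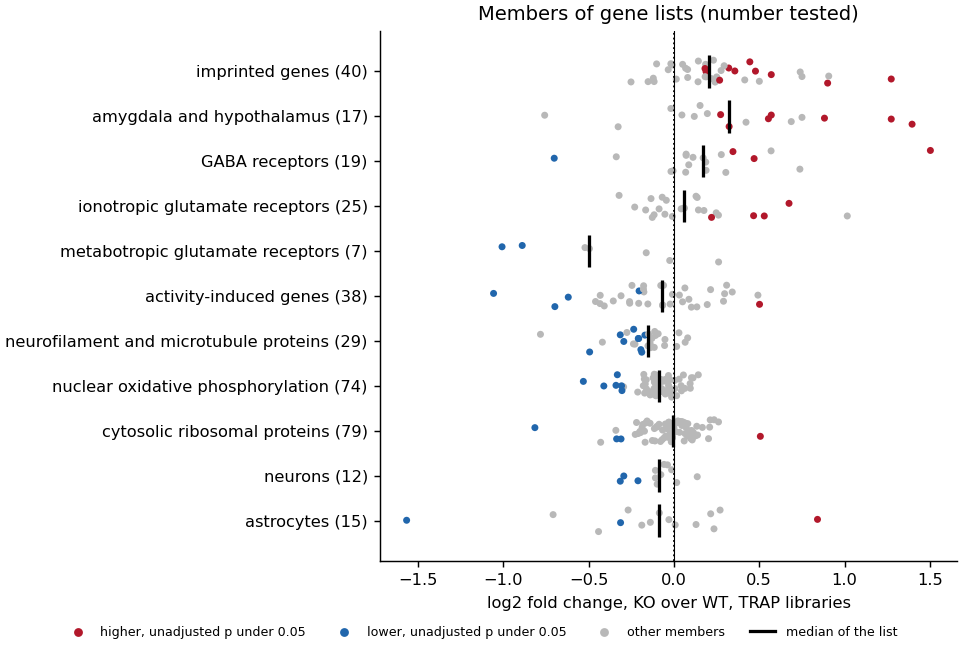
Log2 fold change of KO over WT in TRAP (x axis) of the tested members of 11 gene and marker lists, a point for each gene, with red for higher and blue for lower at an unadjusted p under 0.05 and a black bar for the median of the list. The dotted line is the median of all genes tested. The bars of the imprinted and the amygdala and hypothalamus lists lie at 0.20 and 0.32, that of the neurofilament and microtubule proteins at -0.15.

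Receptors for glutamate and GABA gave mixed values, none past the adjusted test, and are given by an unadjusted p under 0.05, where 2.68% of all genes were higher and 3.37% lower. Of 25 genes for ionotropic glutamate receptors and their partners, 4 were higher and none lower, and without KO 4 there were 2 higher. Besides Gria2 and Grin3a they were Grid1 and Neto2, at 0.47 and 0.67 on the log2 scale. Grin3a, an NMDA receptor subunit, stood at 42.0, 41.2 and 36.9 CPM in WT and at 59.4, 53.4 and 60.8 CPM in KO, without overlap. Gria2, the AMPA receptor subunit that blocks calcium entry, overlapped between genotypes, at 436, 368 and 360 CPM in WT and 477, 433 and 448 CPM in KO. Of 7 metabotropic glutamate receptors 2 were lower, Grm2 and Grm8, at log2 fold changes of -0.89 and -1.01, and without WT 1 none was lower and 1 was higher. Of 19 genes for GABA receptors 3 were higher, namely Gabra3, Gabrb2 and Gabrq, and 1 was lower, while 1 was higher without KO 2 and 5 without WT 1. The lower one was Gabra2, at 42.5, 39.5 and 45.7 CPM in WT and 29.6, 22.9 and 26.1 CPM in KO, with a log2 fold change of -0.70 (standard error 0.18) in TRAP and -0.51 in input. Adra2a, an α2 adrenergic receptor, was the only 1 of 19 monoamine and acetylcholine receptors past an unadjusted p of 0.05, at 23.8, 25.9 and 17.3 CPM in WT and 38.2, 41.7 and 29.1 CPM in KO. Its log2 fold change was 0.70 in TRAP and -0.20 in input.

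Of 61 potassium channel genes 2 were higher at an unadjusted p under 0.05 (Kcng1 and Kcnh3, where 2.68% of all genes were) and 1 was lower (Kcnab2, against 3.37%), and their median log2 fold change was 0.00. Of 28 sodium, calcium and HCN channel genes Scn3b alone was past an unadjusted p of 0.05, at 70.2, 66.3 and 52.9 CPM in WT and 90.4, 83.6 and 73.3 CPM in KO. Without WT 1 the numbers higher were 8 potassium channel genes and 6 of the other channels, where 520 of all 12057 genes were, and none of the latter was higher without WT 3 or without KO 2.

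At the synapse, 53 genes of vesicle release gave 3 higher and 8 lower (2.68% and 3.37% of all genes), among the latter Ap2s1, Snap25, Stx1a and Cplx2. Snap25 stood at 5222, 5354 and 5420 CPM in WT and at 4487, 4975 and 4366 CPM in KO. Rab3b, a GTPase of synaptic vesicles, was among the 3 higher, at 75.0, 80.7 and 90.6 CPM in WT and 100.1, 99.2 and 152 CPM in KO. The number lower was 4 without KO 2 or a composition factor, 3 without KO 4 and 2 without WT 3, and the number higher was 0 without KO 4, 1 without WT 3 and 5 without WT 1. Of 43 postsynaptic scaffold and adhesion genes 5 were higher and 5 lower, led by p by the scaffold genes Grasp, Magi2 and Cnksr2 on the lower side, at log2 fold changes of -0.48, -0.32 and -0.25, and Rapgef4 on the higher, at 0.39. The number higher was 1 without KO 4, 2 without WT 2, 3 without WT 3 and 8 without WT 1. The number lower was 3 without KO 4, without WT 1, with DESeq2 or without a composition factor.

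Apart from Fosb, no AP-1 gene passed either threshold. Of 7 AP-1 genes tested, Fosb alone had an unadjusted p under 0.05, and Fos, Fosl2, Jun, Junb and Jund had log2 fold changes of 0.01 to 0.13 with standard errors of 0.10 to 0.19. The remaining member, Jdp2, a repressor that dimerizes with Jun proteins, stood at 37.7, 42.1 and 38.3 CPM in WT and at 33.8, 26.8 and 36.6 CPM in KO, without overlap, at a log2 fold change of -0.28 (standard error 0.18). Among 38 genes that neuronal activity induces, 4 were lower (3.37% of all genes) and 1 was higher (2.68%), and the number lower ran from 2 without KO 4 or WT 1 to 7 without WT 2. Dusp4, a phosphatase that turns off MAP kinases, stood at 20.1, 16.7 and 19.7 CPM in WT and at 10.6, 9.51 and 7.08 CPM in KO, and Ier5 at 65.8, 44.0 and 53.9 CPM in WT and 43.8, 30.2 and 27.6 CPM in KO. Both had no overlap, though WT 2 and KO 2 of Ier5 lay within 1 CPM. Nptx2 and Homer1 were the other 2 that stood lower, and Gadd45g stood higher. Arc, Egr1 and Nr4a1 had log2 fold changes of 0.05, -0.18 and -0.06. Of 12 tested genes that other work links to ΔFosB, Gria2 alone was past an unadjusted p of 0.05, and it was not without KO 2, WT 2 or WT 3. The 12 values ran from -0.50 (standard error 0.43) for Nfkb1 to 1.14 (standard error 0.60) for Cartpt, and 9 were below 0.

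By an unadjusted p under 0.05 (2.68% of all genes higher and 3.37% lower), 4 of 41 genes of calcium and kinase signaling were lower, namely Calm3, Adcy3, Prkcb and Prkcc, and Prkar2a was higher, with 7 lower without KO 3 and 4 higher without WT 3. Calm3 and Prkcc lie within 20 Mb of Fosb, Prkcc at 16.6 Mb, and Adcy3 lies in the stretch of chromosome 12 with Efr3b. Prkcb, a protein kinase C, stood at 828, 1023 and 961 CPM in WT and at 717, 825 and 604 CPM in KO. Of 74 nuclear genes of oxidative phosphorylation 6 were lower at an unadjusted p under 0.05 (3.37% of all genes) and none higher (2.68%), among them Uqcrfs1, Ndufs8 and Ndufb7 at log2 fold changes of -0.41, -0.34 and -0.30, and 13 were above 0 around a median of -0.09. The values of this list turned on single WT pools, with 27 lower and 4 above 0 without WT 1, 3 lower and 35 above 0 (median -0.01) without WT 2, and 2 lower and 33 above 0 (median -0.02) without WT 3. Of 79 cytosolic ribosomal proteins Rpl23a was higher and Rps9, Rpl28 and Rplp0 were lower. Rps9 and Rpl28 lie within 20 Mb of Fosb, at 16.2 and 15.1 Mb. Without WT 1, 12 of the 79 were lower, 1 was lower without WT 2 or without KO 4, and 4 were higher without WT 3. The 10 genes that the study took up for qPCR held 4 higher and 6 lower, among the latter Elavl2 and Kctd9 at log2 fold changes of -0.41 and -0.93, which is no independent evidence, since they were chosen on these libraries.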

How the data were processed

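The authors deposited raw counts, whole reads per gene, of each library in its own file, made with TopHat (mm9) and HTSeq-count (Gencode vM1) from uniquely placed reads. Versions and the strand setting are not given in the sources used here. All counts on genes were used, and reads counted on no gene, 20.6% to 27.1% of the uniquely aligned reads, were left out. A label without the word input was read as TRAP. Replicates are pools of mice.

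Counts were analysed with edgeR 4.0.16 in R 4.3.3: filterByExpr by group, TMM, robust quasi-likelihood F test, Benjamini-Hochberg adjustment over all genes tested, and a standard error equal to the log2 fold change over the root of F. CPM was TMM-normalized over 12 libraries. The fits were KO against WT in TRAP, the same in input, and their difference in 1 fit of 12 libraries. On simulated counts for 11495 genes, 60.4% of 2-fold changes, 89.4% of 3-fold changes and 0.159% of genes left unchanged were called by the TRAP fit.

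The genes and lists (23 gene lists, 10 marker lists) were chosen with earlier results of these data known. Named were genes with an adjusted p under 0.05; the next 12 in each direction by p without overlap and with at least 5 CPM; the 5 with the largest fold change in each direction; up to 4 members of each list with an unadjusted p under 0.05; Fosb and the 10 genes of the qPCR list; and the 3 leading interactions in each direction. List members named beyond these, and Sgce, Bcan, Aqp4, 2410017P09Rik, Dnmt3a and Ncoa1, were named after their values were seen. Promoter letters were read from mm9, for 11726 of the 11727 genes. Windows of 32 bases from the exons of the 8 genes were looked up on 21 chromosomes of mm9.

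Alternatives were RLE, total counts, no expression filter (1 count in some library), a filter at a mean of 10 counts, no mitochondrial genome genes, no robust dispersion, DESeq2 1.42.0, all 12 libraries in the fit, pool number as a block, and each pool omitted in turn.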

Additional observations from a re-analysis of the deposited data

Results flagged for a closer look

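Epas1 was the only gene whose KO effect in TRAP differed from that in input by the adjusted interaction test, at -1.38 on the log2 scale (edgeR adjusted p = 0.0233). In TRAP the log2 fold change was -1.21 and in input 0.18. The adjusted p was 0.0191 with RLE, 0.0499 with the pool as a block that joins the TRAP and input library of each pool, and between 0.0216 and 0.796 with a pool left out. Groups of 3 libraries were not searched for single libraries that stand far out.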

How the results depend on the processing

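Of the genes with an adjusted p under 0.05 in TRAP, 41 of 19273 were called without an expression filter and 18 with DESeq2, and 5 to 20 with a pool left out. The number with an unadjusted p under 0.05 was 1101 without a filter and 431 to 995 with a pool left out. The lowest, without KO 4, is below the 602.5 calls that would be made in its 12050 genes if none differed, and DESeq2's 560 is below the 586 for 11727 genes. In input the number with an adjusted p under 0.05 was 19 without a filter, 8 with DESeq2 and 1 to 5 with a pool left out, and the interaction gave 0 to 1. Besides the lost filter and fewer libraries, the cause of these moves was not tested. For the named genes no value turned its direction under any alternative, 1292 values kept their side of the threshold, 53 passed it and 20 lost it. Nefm lost its call with total counts, and Nefm and Id4 lost theirs without robust dispersion and with all 12 libraries in the fit.

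WT and KO pools share the numbers 2 and 3 in their labels, each pool being separate mice. The deviations of same-numbered TRAP libraries correlated at -0.07 and 0.00, where those of differently numbered ones ran from -0.10 to 0.11. So few pairs cannot show whether same-numbered pools were handled together. With the number as a replicate block, 6 genes passed the adjusted test and 480 had p under 0.05 before adjustment, also below 586. Calm3, Id4 and Nefm were not among the 6.

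Depth limits low genes most, with a median standard error of 0.59 under 5 CPM and 0.11 from 100 CPM up. The share with an unadjusted p under 0.05 was 3.69% under 5 CPM and 9.59% from 100 CPM up. For lists of highly expressed genes the share over all genes is thus a low reference.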

Other observations

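Genes on the X chromosome held 29 higher and 10 lower of 439 tested at an unadjusted p under 0.05, against 2.68% and 3.37% of all genes, with a median log2 fold change of 0.03. With a pool left out 17 to 31 were higher and 4 to 16 lower, and without a composition factor 34 and 3. Besides Zcchc12, Arhgap36 and Gabra3, the higher ones included Pcdh11x and Hs6st2, at log2 fold changes of 1.23 and 0.58. In input 13 of 428 X-linked genes were higher and 1 was lower, against 1.41% and 1.48% of all genes in input. These were named after their values were seen.

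Of 15 marker genes of GABA neurons, Npy alone had an unadjusted p under 0.05 over all 6 TRAP libraries. Without KO 2, 7 of the 15 were lower and none was higher (324 and 292 of all 12049 genes), and their median log2 fold change was -0.58 against 0.03 with it. Sst, the somatostatin gene, stood at 176, 125 and 125 CPM in WT 1, 2 and 3 and at 175, 58.3 and 58.1 CPM in KO 2, 3 and 4. The summed level of the 16 annotated markers was 730 to 927 CPM in WT, 1118 CPM in KO 2, and 689 and 698 CPM in KO 4 and KO 3.

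By an unadjusted p under 0.05, where 2.68% of all genes were higher and 3.37% lower, Id4 was higher and Aldh1l1 and Glul were lower among 15 tested astrocyte markers, with Aldh1l1 at 10.7, 5.88 and 7.44 CPM in WT and 1.95, 1.46 and 4.64 CPM in KO. Cspg4, of the oligodendrocyte lineage, and the pericyte gene Pdgfrb had log2 fold changes of -0.88 and 1.68. Of 9 tested oligodendrocyte markers 1 was lower and none higher, and none was lower without WT 1. Of 4 tested markers of endothelium, pericytes and choroid plexus 1 was higher and none lower. None of these 4 was higher without KO 2, WT 1 or WT 3. Chaperones gave 1 higher and 4 lower of 63, with Hsph1, Hsp90aa1 and Hsp90ab1 at log2 fold changes of -0.29 to -0.18, and 2 lower without KO 2 and 7 without WT 2. Neuropeptides and granins gave 1 higher (Grp) and 2 lower (Npy and Scg5) of 20. Without KO 2 there were 4 lower, and the number higher was 3 without KO 3 and 2 without KO 4 or WT 3. Their receptors with orphan receptors gave 3 higher (Sstr1, Cnr1 and Gpr101) and none lower of 26, with 1 higher without KO 4 or WT 2. The 12 mitochondrial genome genes tested had a median of 0.32, which ran from -0.05 without WT 1 to 0.64 without WT 2, and none had an unadjusted p under 0.05. None of 7 stress hormone genes did.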
